A study of Mus musculus with 6 samples.

Results

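The genes examined were 9 components of insulin receptor signaling, listed by gene symbol: Insr, Irs1, Irs2, Pik3r1, Pik3ca, Akt1, Akt2, Tbc1d4 and Grb14. All 9 were among the 54532 genes of the deposited count table, and all 9 were among the 16003 genes with enough counts to be tested. RNA was sequenced from the epididymal white fat pad (eWAT) of C57BL/6 mice, harvested on day 21 after tumor cells were given. The cachectic group was 3 mice that had been inoculated under the skin with LLC cells, an established Lewis lung carcinoma line from the mouse, and the control group was 3 mice labeled control, whose own treatment the labels do not describe. The labels name no engineered allele, and the study's methods describe the strain as male mice obtained at 6 to 10 weeks of age. Tumor-bearing mice were called cachectic by their loss of body weight, and no tumor-bearing mice without cachexia were among the 6, so the tumor and the wasting cannot be told apart.

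The insulin receptor, encoded by Insr, is a tyrosine kinase that phosphorylates docking proteins of the IRS family. These recruit phosphoinositide 3-kinase (PI3K), a pair of a regulatory subunit (here Pik3r1) and a catalytic subunit (here Pik3ca), whose lipid product activates the AKT kinases. In fat cells, AKT phosphorylates the product of Tbc1d4 and thereby lets the glucose transporter GLUT4 reach the cell surface, and it keeps FoxO transcription factors out of the nucleus. The adaptor encoded by Grb14 binds the active receptor and inhibits its kinase. In fat, insulin acting through this chain promotes glucose uptake and fat synthesis and restrains lipolysis, and Insr and Irs2 are known FoxO-activated genes in several tissues. None of this signaling is measured by RNA abundance, which is what the values here describe.

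Because transcripts of Irs2, Pik3r1 and Grb14 differed between the groups while those of Irs1, the paralog of Irs2, did not pass the test, the bases in front of the start of these 4 genes are shown. They are windows of 250 bases upstream of the start annotated by RefSeq, which for Grb14 lies inside the gene as the count table bounds it, on GRCm38.p6, written 5′ to 3′ on the strand of the gene, which is the minus strand for all 4. Capitals mark matches to 1 of 4 motifs searched on both strands, namely the FoxO motif GTAAACA, the insulin response motif CAAAACA, the STAT motif TTCNNNGAA and the SREBP motif TCACNCCA. Matches to different motifs did not overlap.
Irs1, chr1:82291440-82291689: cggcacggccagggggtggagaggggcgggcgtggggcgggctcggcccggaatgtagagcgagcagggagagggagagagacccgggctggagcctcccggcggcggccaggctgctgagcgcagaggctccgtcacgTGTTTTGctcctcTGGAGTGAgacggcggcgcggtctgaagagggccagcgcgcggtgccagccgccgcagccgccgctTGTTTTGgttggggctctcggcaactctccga
Irs2, chr8:11008930-11009179: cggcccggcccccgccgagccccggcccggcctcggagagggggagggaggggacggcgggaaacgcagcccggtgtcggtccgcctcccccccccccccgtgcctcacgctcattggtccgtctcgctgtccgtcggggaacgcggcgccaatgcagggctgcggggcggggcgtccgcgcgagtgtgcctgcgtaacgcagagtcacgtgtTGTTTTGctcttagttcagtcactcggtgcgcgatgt
Pik3r1, chr13:101768218-101768467: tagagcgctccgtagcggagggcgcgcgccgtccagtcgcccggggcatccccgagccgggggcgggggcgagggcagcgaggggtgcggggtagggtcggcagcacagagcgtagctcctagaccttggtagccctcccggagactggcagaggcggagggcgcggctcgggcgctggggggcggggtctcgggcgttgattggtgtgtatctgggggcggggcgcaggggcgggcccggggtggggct
Grb14, chr2:65022767-65023016: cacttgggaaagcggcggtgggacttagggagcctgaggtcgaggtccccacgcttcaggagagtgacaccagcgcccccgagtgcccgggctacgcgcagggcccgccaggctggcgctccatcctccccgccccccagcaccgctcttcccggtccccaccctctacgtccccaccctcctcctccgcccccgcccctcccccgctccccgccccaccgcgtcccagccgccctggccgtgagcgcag

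The insulin response motif, which FoxO factors can bind, was found once in the Irs2 window, beginning 37 bases before the start, and at 2 places in the Irs1 window, beginning 111 and 32 bases before it. The Irs1 window also held 1 SREBP match. None of the 4 motifs was found in the windows of Pik3r1 and Grb14 shown. Among all 32817 promoter windows of this length, 5.56% held the insulin response motif, 3.16% the FoxO motif, 7.01% the STAT motif and 3.67% the SREBP motif. RefSeq windows matched 8 of the 9 genes, all but Insr. In the 9 windows of these genes that are not shown, there was 1 FoxO match, in a window of Akt1, and 1 STAT match, in a window of Akt2. A match is a run of letters and no evidence of binding. The windows of Irs1, Irs2, Pik3r1 and Grb14 were rich in G and C (72.4%, 72.8%, 76.4% and 75.2%, against a median of 52.4% over all windows).

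The total count per library was between 14928766 and 18855546, and every cachectic library was smaller than every control library. Adipocyte markers were abundant in all 6 libraries: the 10 markers, including Adipoq and Plin1, summed to 26377 to 34180 CPM (counts scaled to a common library size) in control mice and 27937 to 43951 CPM in cachectic mice, and 1 of the 10 (Cidec, higher) passed the test described below. Single markers differed in direction, and 4 of the 10 had a log2 fold change above 0. Plin1 and Retn were lower in every cachectic mouse than in any control (log2 fold changes -1.44 and -0.60, adjusted p = 0.057 and 0.165 in that test). The 9 tested neutrophil markers summed to 12.0 to 15.5 CPM in control mice and 209 to 784 CPM in cachectic mice (8 of 9 higher), the 6 erythroid markers to 252 to 451 and 1333 to 2855 CPM (6 of 6 higher), and the 7 endothelial markers to 1345 to 1395 and 1822 to 2877 CPM (3 of 7 higher). The sums of 8 macrophage markers overlapped between the groups, at 796 to 991 and 636 to 1017 CPM, with 1 marker higher and 1 lower. Of 8 progenitor and fibroblast markers, 1 was higher and 3 were lower, with sums of 3266 to 3536 and 2249 to 3055 CPM. No marker of 5 mesothelial genes and none of the 6 tested T and B cell genes passed, nor did either tested muscle gene. The 5 epididymis markers had too few counts to be tested, although Adam7 had 61 counts in control replicate 1 against 4 and 0 in the other controls and 17, 0 and 0 in cachexia replicates 1, 2 and 3, and Cst11 was at 0 in every library. Whole tissue was sequenced, so fewer cells of a type and less RNA per cell cannot be told apart.

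The question of the comparison is how tumor-bearing, cachectic mice differ from control mice in eWAT. Insr and Irs2 were higher in cachectic mice, by 2.28-fold and 2.68-fold. Pik3r1, the main PI3K regulatory subunit, and Grb14, the receptor inhibitor, were lower, by 4.06-fold and 8.60-fold. Irs1, Pik3ca, Akt1, Akt2 and Tbc1d4 did not pass the test. The quasi-likelihood test of edgeR was run on raw counts with TMM factors, followed by Benjamini-Hochberg adjustment over all 16003 genes and a threshold of 0.05. At this threshold 17.6% of all tested genes differed (1440 genes higher, and 1381 or 8.63% lower), and 4 of the 9 genes did. The groups did not overlap in the same 4 genes, against 40.5% of all tested genes. Unless another fit or test is named beside it, an adjusted p below comes from this edgeR test. All levels are CPM, scaled with the same factors, and log2 fold changes are cachexia over control. With 3 mice in each group, exact permutation of the group labels cannot bring a two-sided p below 0.1, the value of each of the 4 genes.

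**Figure D1:**
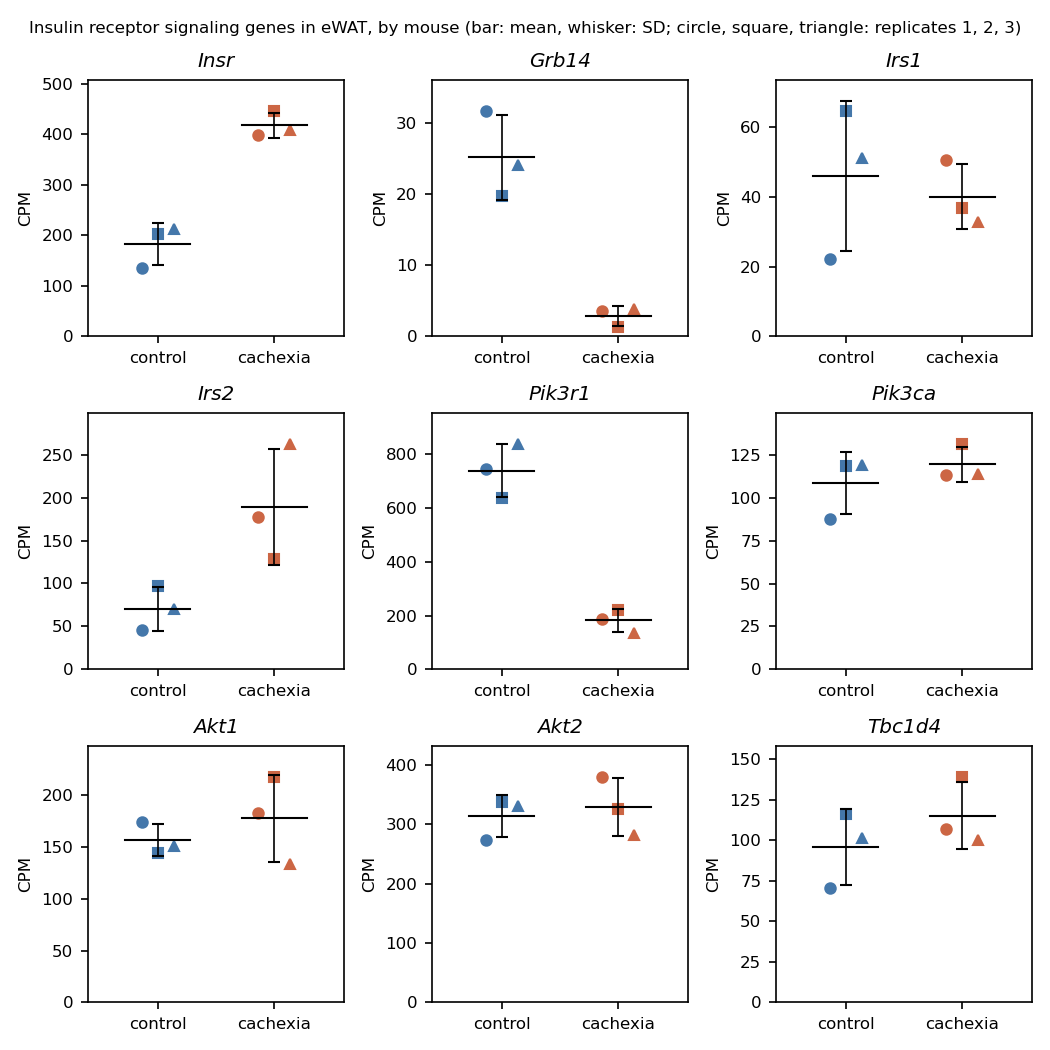
CPM (vertical axes, linear, from 0) of the 9 insulin receptor signaling genes in each of the 3 control and 3 cachectic mice, with the mean as a bar and the SD as whiskers. The cachectic mice lie wholly above the controls for Insr and Irs2, wholly below them for Pik3r1 and Grb14, and overlap with them for the other 5 genes.

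The receptor gene Insr lies on chromosome 8 from 3122061 to 3279617. All coordinates are on GRCm38, where Pik3ca and Akt2 lie on the plus strand and the other 7 genes on the minus strand. In control replicates 1, 2 and 3 its level was 135, 203 and 212 CPM, and it was 399, 446 and 409.7 CPM in the cachectic mice. Every cachectic mouse was thus above every control, and the cachectic mice lay closer together (418 ± 24.3, SD, n = 3) than the controls (183 ± 42.0, SD, n = 3). The log2 fold change was 1.19 (95% interval 0.73 to 1.65, standard error 0.20, adjusted p = 0.00868). Endothelial markers, whose sums are given above, were also higher in the cachectic mice, and their part in the level of Insr was not tested. Igf1r, which encodes the related receptor for insulin-like growth factor 1, measured 48.1, 37.2 and 30.2 CPM in the controls and 40.6, 53.6 and 45.6 CPM in the cachectic mice. These groups overlapped, with a log2 fold change of 0.27 (95% interval -0.17 to 0.72, adjusted p = 0.354). Within a library, where the scaling of libraries drops out, the ratio of Insr to Igf1r reads per gene length was 3.43, 6.66 and 8.57 in the controls and 12.0, 10.2 and 10.98 in the cachectic mice. All 3 cachectic ratios were above the control ratios, a 1.90-fold difference of geometric means (exact permutation test, two-sided, p = 0.1).

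Grb14, on chromosome 2 from 64912476 to 65024987, showed the largest fold change of the 9 genes. Its level was 31.7, 19.8 and 24.1 CPM in the controls (replicates 1, 2 and 3) and 3.62, 1.29 and 3.87 CPM in cachexia replicates 1, 2 and 3. The cachectic values rest on 62, 21 and 59 reads. Even the lowest control was far above the highest cachectic mouse. The log2 fold change was -3.11 (95% interval -4.01 to -2.20, standard error 0.39, adjusted p = 0.00356). Relative to the receptor it inhibits, Grb14 had 0.448, 0.187 and 0.217 reads per length for each of Insr in the controls, and 0.0173, 0.00554 and 0.0181 in the cachectic mice, a 21.9-fold difference of geometric means (exact permutation test, two-sided, p = 0.1).

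Grb10 encodes an adaptor of the same family, which also binds and inhibits the receptor, and it was higher in cachectic mice. It had 78.0, 104 and 78.4 CPM in the controls and 161, 159 and 139.8 CPM in cachexia replicates 1, 2 and 3, with no overlap and a difference of 0.82 on the log2 scale (adjusted p = 0.0137, standard error 0.16). The ratio of Grb14 to Grb10 reads per length fell from 0.514, 0.240 and 0.389 to 0.0284, 0.0102 and 0.0350. Its groups were separated by a factor of 16.8 between geometric means (exact permutation test, two-sided, p = 0.1). Grb10 held 66.8% ± 14.7 (SD, n = 3) of the reads per length of Grb7, Grb10 and Grb14 in control mice and 97.2% ± 0.938 (SD, n = 3) in cachectic mice. Grb7, the other member of this adaptor family, named after its values were seen, had 13.3 CPM in control replicate 1 and 0.85 CPM or less in each of the other 5 libraries, and it did not pass the test (adjusted p = 0.0720), although it did without the filter on low counts (adjusted p = 0.0367). Control replicate 1 was also the library with the most Adam7 reads, as given above. Other epididymis markers did not all follow Adam7. Crisp1 had 3, 5 and 15 counts in control replicates 1, 2 and 3, Spink8 had 6, 1 and 5, and Lcn5 had 1, 0 and 0. A link between Grb7 and epididymal tissue was not tested. Without control replicate 1 the log2 fold change of Grb14 was -2.91, still past the threshold.

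The 2 substrate genes among the 9 behaved differently. Irs2, on chromosome 8 from 10984681 to 11008458, measured 45.4, 96.7 and 69.9 CPM in the controls (replicates 1, 2 and 3) and 178, 128 and 262 CPM in cachexia replicates 1, 2 and 3. The groups did not overlap, but the spread within each was wide, at 70.7 ± 25.7 and 189 ± 67.5 CPM (SD, n = 3). The log2 fold change was 1.42 (95% interval 0.65 to 2.19, standard error 0.33, adjusted p = 0.0260). This was the least secure of the 4 differences: in edgeR fits repeated with 1 mouse left out, the adjusted p was between 0.0518 and 0.0957 when control replicate 1, control replicate 3, cachexia replicate 1 or cachexia replicate 3 was left out, with log2 fold changes between 1.12 and 1.46.

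Irs1, on chromosome 1 from 82233101 to 82291416, had 22.3, 64.6 and 51.2 CPM in the controls and 50.6, 37.0 and 32.8 CPM in the cachectic mice. The cachectic values all fell inside the control range, and the log2 fold change of -0.20 had a 95% interval from -1.02 to 0.63 (adjusted p = 0.739). A change anywhere within this interval, in either direction, is thus compatible with these mice. The ratio of Irs1 to Irs2 reads per length was 0.340, 0.462 and 0.507 in the controls and 0.197, 0.199 and 0.0868 in the cachectic mice. All 3 cachectic ratios were lower, by 2.86-fold between geometric means (exact permutation test, two-sided, p = 0.1). Mouse fat also expresses Irs3, a short IRS family member absent as a working gene in humans, which was named here after its values were seen. Irs3 had 56.3, 85.4 and 72.8 CPM in the controls and 62.1, 43.2 and 26.7 CPM in the cachectic mice, with overlapping groups (log2 fold change -0.70, adjusted p = 0.138). Per gene length it was the most abundant of the 3 in control mice, with 66.2% ± 4.82 (SD, n = 3) of their reads, against 23.5% ± 2.37 for Irs2 and 10.3% ± 2.67 for Irs1. In cachectic mice Irs2 held 46.7%, 47.4% and 73.4% and Irs3 44.1%, 43.2% and 20.3%, while Irs1 held 8.33% ± 1.71 (SD, n = 3). The order of Irs2 and Irs3 was thus turned around in all 3 cachectic mice, and this order was not tested.

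**Figure D2:**
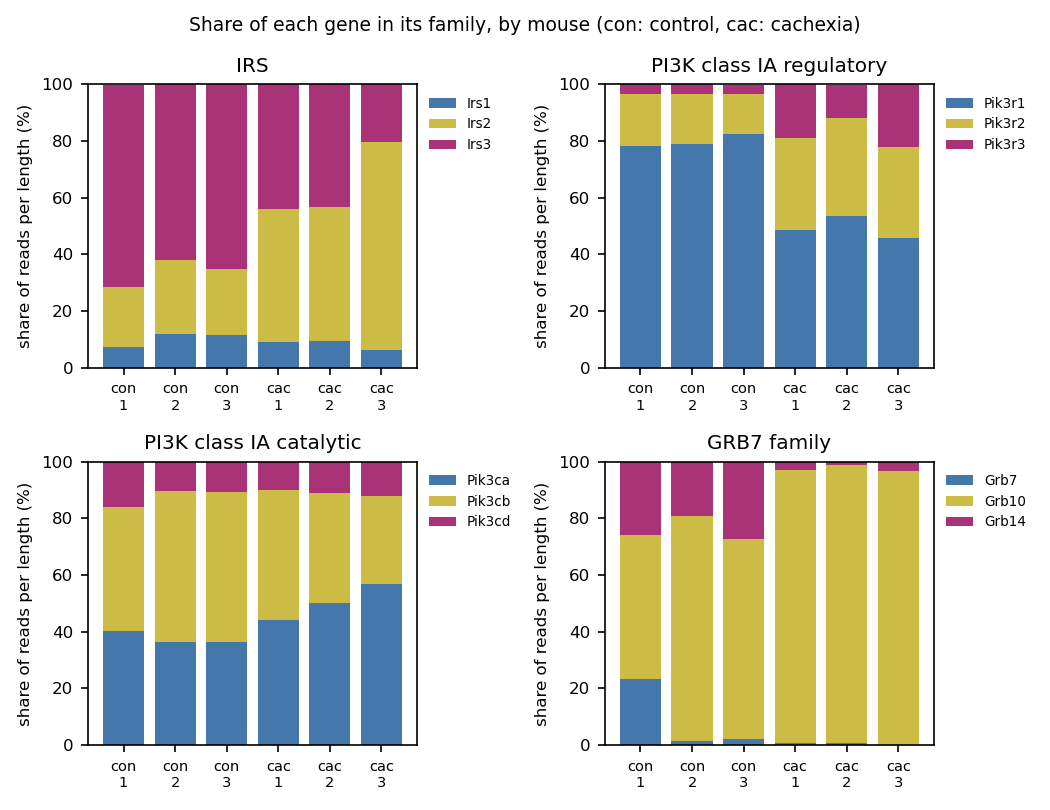
Share of reads per gene length (vertical axes, percent) of each gene within the IRS genes, the class IA PI3K regulatory subunits, the class IA PI3K catalytic subunits and the GRB7 adaptor family, with 1 stacked bar per mouse. Irs2, Pik3r2 and Pik3r3 take larger shares and Irs3 and Pik3r1 smaller shares in the cachectic mice, and Grb10 holds nearly all of its family there (97.2% ± 0.938, SD, n = 3).

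Pik3r1, on chromosome 13 from 101680563 to 101768217, had the smallest p of the 9 genes. It measured 743, 636 and 835 CPM in the controls (replicates 1, 2 and 3) and 189, 220.0 and 136 CPM in cachexia replicates 1, 2 and 3. The highest cachectic mouse was well below the lowest control, and the log2 fold change was -2.02 (95% interval -2.54 to -1.51, standard error 0.22, adjusted p = 0.00250). Its catalytic partner Pik3ca, on chromosome 3 from 32397671 to 32468486, had 87.6, 119 and 119 CPM in the controls and 113, 131 and 114 CPM in the cachectic mice. These groups overlapped, with a log2 fold change of 0.14 (95% interval -0.23 to 0.51, adjusted p = 0.581), and the whole interval lay above that of Pik3r1. The ratio of Pik3r1 to Pik3ca reads per length was 7.64, 4.84 and 6.31 in the controls and 1.51, 1.51 and 1.08 in the cachectic mice, a 4.56-fold difference of geometric means with no overlap (exact permutation test, two-sided, p = 0.1). RefSeq also places a start of Pik3r1 within the gene, and counts per gene do not tell the transcripts apart. The 2 tested protein-coding genes whose log2 CPM followed Pik3r1 most closely over the 6 libraries were Cotl1 and Elmo3, each with a Pearson correlation of 0.998. This is a description over 6 libraries that share the split between the groups, chosen as the highest of 13723 correlations.

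The other class IA subunits were measured as well. Pik3r3, which encodes another regulatory subunit, rose from 15.8 ± 1.54 to 33.1 ± 6.69 CPM (SD, n = 3) and reached a log2 fold change of 1.07 (adjusted p = 0.00922, standard error 0.18). Pik3r2 had a log2 fold change of -0.33 and did not pass (adjusted p = 0.213). Of the reads per length of the 3 regulatory genes, Pik3r1 held 78.4%, 79.0% and 82.6% in the controls and 48.5%, 53.6% and 45.7% in the cachectic mice. Pik3r3 went from 3.27% ± 0.0895 to 17.7% ± 5.14 and Pik3r2 from 16.7% ± 2.27 to 33.1% ± 1.21 (SD, n = 3). A share also depends on the other genes of the family, and that of Pik3r2 grew although its log2 fold change was -0.33. Summed over the 3 regulatory and the 3 catalytic class IA genes, there were 3.92, 2.22 and 2.78 regulatory reads per length for each catalytic one in the controls and 1.37, 1.41 and 1.34 in the cachectic mice. Pik3cb, a second catalytic subunit, had 117 ± 36.0 and 74.3 ± 22.6 CPM (SD, n = 3) with overlapping groups (log2 fold change -0.65, adjusted p = 0.165).

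Akt1, on chromosome 12 from 112653821 to 112674884, and Akt2, on chromosome 7 from 27591552 to 27640826, encode the kinases downstream of PI3K, of which AKT2 is the form most tied to glucose uptake in fat. Akt1 had 174, 145 and 151 CPM in the controls and 182, 217 and 133 CPM in the cachectic mice. Akt2 had 274, 338 and 330.4 CPM in the controls and 378, 325 and 282 CPM in the cachectic mice. Neither separated the groups. The log2 fold change was 0.18 for Akt1 (95% interval -0.27 to 0.63, adjusted p = 0.551) and 0.07 for Akt2 (-0.33 to 0.46, adjusted p = 0.823). The ratio of Akt2 to Akt1 reads per length was 0.905, 1.34 and 1.26 in the controls and 1.19, 0.861 and 1.22 in the cachectic mice, with overlapping groups (exact permutation test, two-sided, p = 0.5).

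Tbc1d4, on chromosome 14 from 101442360 to 101609191, encodes the AKT substrate that holds back GLUT4 vesicles until it is phosphorylated. It had 70.5, 116 and 101 CPM in the controls and 107, 139 and 100.4 CPM in the cachectic mice. The groups overlapped, with a log2 fold change of 0.26 (95% interval -0.23 to 0.76, adjusted p = 0.423). Its paralog Tbc1d1 had 51.7, 33.1 and 40.6 CPM in the controls and 29.6, 29.6 and 24.5 CPM in the cachectic mice, a log2 fold change of -0.58 that did not pass (adjusted p = 0.0662), although it did with DESeq2 (adjusted p = 0.0388). The ratio of Tbc1d4 to Tbc1d1 reads per length was 1.31, 3.40 and 2.41 in the controls and 3.48, 4.52 and 3.95 in the cachectic mice. The groups touched closely at 3.40 and 3.48 (exact permutation test, two-sided, p = 0.1). Among the ratios tested, all but that of Akt2 to Akt1 did not overlap, and each had p = 0.1 in the exact permutation test. After Benjamini-Hochberg adjustment over the 7 ratios these exact permutation values stood at 0.117, so the design could not bring any of them under 0.05. Of the ratios that did not overlap, all but Tbc1d4 to Tbc1d1 hold a gene that passed the test by itself, so they largely repeat those calls. Among single tested genes 40.5% did not overlap, and the share among ratios of other gene pairs was not measured.

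**Figure D3:**
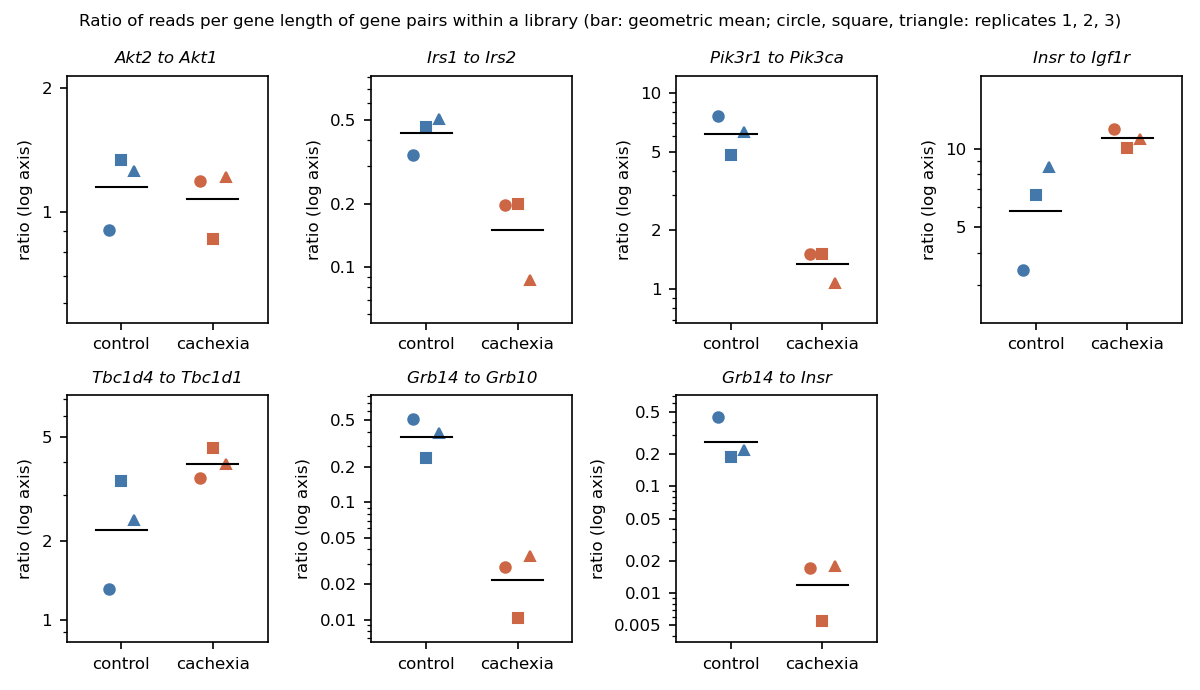
Ratio of reads per gene length of gene pairs within a library (logarithmic vertical axes), for each of the 3 control and 3 cachectic mice, with the geometric mean as a bar. The Pik3r1 to Pik3ca, Grb14 to Grb10 and Grb14 to Insr ratios are lower in all cachectic mice by factors of 4.56, 16.8 and 21.9, and the Akt2 to Akt1 ratio overlaps between the groups.

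The levels of the 9 genes can be ordered per length in the authors' FPKM values, fragments scaled to gene length and to the mapped fragments of the library. In control mice the order was Pik3r1 (72.3 ± 9.85 FPKM), Akt2 (43.5 ± 4.75), Akt1 (37.7 ± 3.79), Insr (13.2 ± 3.00), Tbc1d4 (12.4 ± 2.98), Pik3ca (11.8 ± 1.94), Irs2 (11.03 ± 3.99), Irs1 (4.97 ± 2.32) and Grb14 (3.46 ± 0.831), each the mean and SD of 3 mice. Neighbors overlapped in range except at 3 places, between Pik3r1 and Akt2, between Akt1 and Insr, and between Irs2 and Irs1. In cachectic mice the order was Akt2 (45.0 ± 6.71 FPKM), Akt1 (42.4 ± 10.1), Insr (29.7 ± 1.67), Irs2 (29.2 ± 10.4), Pik3r1 (17.6 ± 4.09), Tbc1d4 (14.7 ± 2.60), Pik3ca (12.8 ± 1.06), Irs1 (4.29 ± 1.01) and Grb14 (0.398 ± 0.194). Pik3r1 stood at rank 1 in control and rank 5 in cachectic mice, and Irs2 at rank 7 and rank 4. Akt1 and Insr, Pik3ca and Irs1, and Irs1 and Grb14 were the neighbors whose ranges did not overlap there.

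Control replicate 1 had the lowest control level in 6 of the 9 genes (Insr, Irs1, Irs2, Pik3ca, Akt2 and Tbc1d4) and the highest in Akt1 and Grb14. Among the cachectic mice, replicate 3 had the lowest level in 5 genes and replicate 2 the highest in 5. In the annotation 7 of the 9 genes overlap another gene, and Akt2 and Grb14 overlap none. No overlapping gene was assigned more than 176 counts over all 6 libraries, and how many reads fell in both genes of a pair was not measured.

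**Figure D4:**
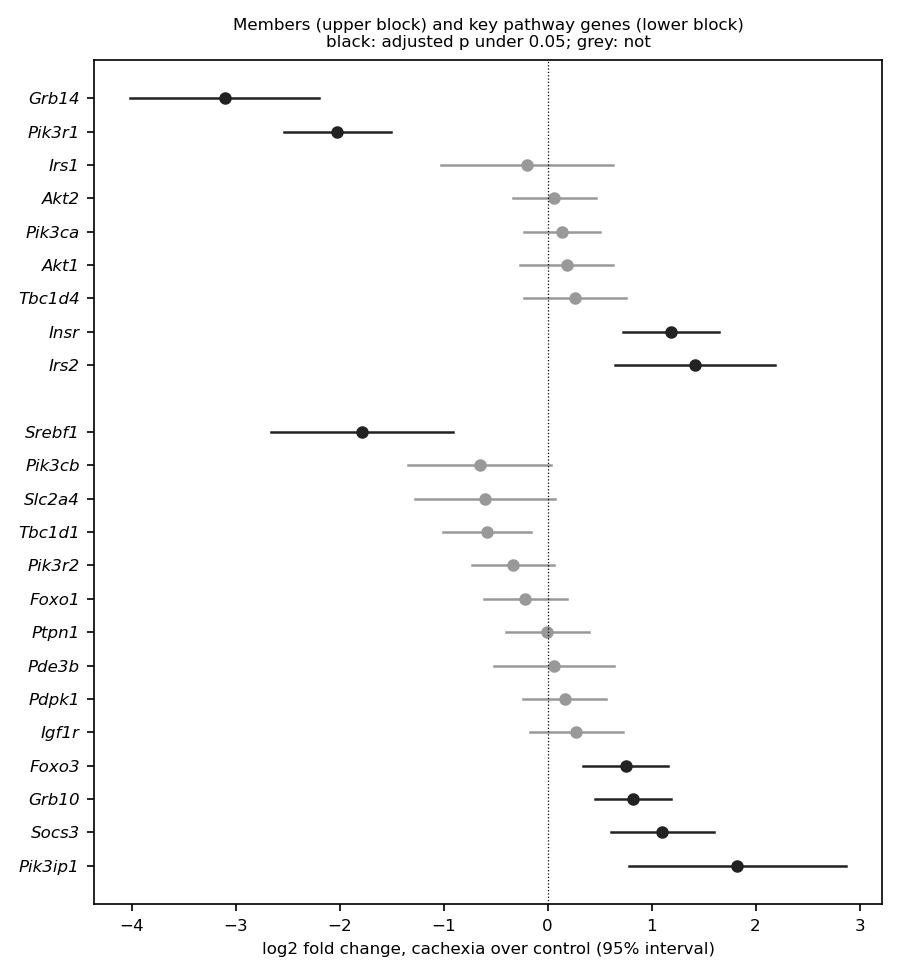
Log2 fold change of cachexia over control (horizontal axis) with its 95% interval for the 9 genes (upper block) and 14 other genes of the pathway listed by hand (lower block), black where the adjusted p was under 0.05. Grb14 (-3.11) and Pik3r1 (-2.02) lie at the low end of the upper block and Insr (1.19) and Irs2 (1.42) at its high end.

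The rest of the pathway was described with 10 lists of genes sorted by role, 133 entries without the 9 genes above. Of these, 129 were tested, and 33 passed the threshold, 17 higher and 16 lower (25.6%, against 17.6% of all tested genes). Of these 33, 16 were in the 2 lists of transcripts that insulin or FoxO factors induce, which hold only 11 and 12 tested genes. The lists were chosen with earlier results of these data known, so the shares are a description. The median log2 fold change over all tested genes was -0.003. Among 11 tested receptor kinases, substrates and adaptors none passed (median -0.20). Among 9 inhibitors that act at the receptor, 2 were higher, 1 lower and 6 did not pass (median -0.004). Besides Grb10, Socs3, which encodes a cytokine-induced inhibitor of the receptor and of IRS proteins, rose from 52.1 ± 13.5 to 112 ± 20.5 CPM (SD, n = 3; log2 fold change 1.10, adjusted p = 0.0141). Ptprf, which encodes a receptor-type tyrosine phosphatase, had a log2 fold change of -1.41, with 110.3 CPM in control replicate 1 and 54.0 and 58.2 CPM in the other controls against 23.3 to 30.7 CPM in cachectic mice. Ptpn1, which encodes the phosphatase PTP1B, had 64.5 ± 4.70 and 64.3 ± 14.6 CPM (SD, n = 3), with a log2 fold change whose 95% interval was -0.40 to 0.39.

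Of 13 PI3K subunits and regulators outside the 9 genes, 3 were higher and none lower (median -0.20). Pik3ip1, which encodes a membrane inhibitor of PI3K, had 12.2, 6.65 and 6.12 CPM in the controls and 19.5, 50.9 and 18.6 CPM in cachexia replicates 1, 2 and 3 (log2 fold change 1.83, adjusted p = 0.0307). Cachexia replicate 2 stood far above the others, and in a fit without it the log2 fold change was 1.19 with an adjusted p of 0.0577. Pik3r5, which encodes a regulatory subunit of the PI3K of white blood cells, rose from 12.4 ± 1.79 to 35.1 ± 12.1 CPM (SD, n = 3, adjusted p = 0.0117). Neutrophil markers rose in the same mice, as given above, and their part in Pik3r5 was not tested. Other genes of the same list did not all rise. Pik3cg, Pik3cd and Pik3r6, named after their values were seen, had log2 fold changes of -0.76, -0.39 and 0.47, and none of them passed. Of 8 phosphoinositide phosphatases, Inpp5k passed with a log2 fold change of 0.61 (adjusted p = 0.0150), and the other 7 did not pass.

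Among 14 genes of kinases that act on AKT, AKT inhibitors and related genes, 1 was higher and 3 were lower (median 0.04). Deptor, which encodes an inhibitor within the mTOR complexes, fell from 159 ± 41.7 to 64.5 ± 4.90 CPM (SD, n = 3; log2 fold change -1.30, adjusted p = 0.00743). Mapkap1 (-0.64) and Prr5 (-0.69), which encode subunits of the mTOR complex that phosphorylates AKT, also had lower values past the threshold, and Trib3, a pseudokinase that binds AKT, had a log2 fold change of 0.71 (adjusted p = 0.0476). Pdpk1, the other kinase that activates AKT, had a log2 fold change of 0.16 with a 95% interval of -0.24 to 0.57. Of 21 tested genes of GLUT4 vesicle traffic, 1 was higher (Trip10, log2 fold change 0.45) and 2 lower (Rala, -0.50, and Rab10, -0.50), with a median of -0.24. Slc2a4, which encodes GLUT4 itself, had 164, 223 and 223 CPM in the controls and 159.9, 165 and 76.9 CPM in the cachectic mice, with groups that overlap by a narrow margin (log2 fold change -0.60, 95% interval -1.27 to 0.07, adjusted p = 0.187).

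Among 16 other AKT targets and mTORC1 genes, 3 were higher and none lower (median 0.18). The FoxO factor genes Foxo3 and Foxo4 rose, with log2 fold changes of 0.75 and 0.69 (adjusted p = 0.0267 and 0.0196), whereas Foxo1 had 129 ± 14.9 and 111 ± 20.2 CPM (SD, n = 3; log2 fold change -0.21, adjusted p = 0.422). Eif4ebp1, a translation repressor that mTORC1 inactivates, had a log2 fold change of 0.82 (adjusted p = 0.0436). Pde3b, the phosphodiesterase through which insulin restrains lipolysis, had 525 ± 159.9 and 549 ± 69.5 CPM (SD, n = 3). None of the 14 genes of the RAS-MAPK branch passed (median -0.26).

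The 2 lists of transcripts induced by insulin or by FoxO factors had the medians farthest from 0 of the 10 lists. Of 11 genes that insulin induces for fat synthesis and glycolysis, 9 were lower and none higher, and the median log2 fold change was -2.34. Srebf1, the transcription factor gene at the head of this list, had 514, 579 and 602 CPM in the controls and 143, 264 and 83.8 CPM in the cachectic mice (log2 fold change -1.79, adjusted p = 0.0188). Fasn (-4.34), Pnpla3 (-3.77), Thrsp (-2.34) and Hk2 (-1.19) fell as well, and Acaca (-1.47, adjusted p = 0.0758, but 0.00536 with DESeq2) and Mlxipl (-0.25, adjusted p = 0.545), named after their values were seen, did not pass. Of 12 tested genes that FoxO factors induce, 6 were higher and 1 lower, with a median of 0.81. Pdk4 (3.71), Txnip (1.91), Bnip3 (1.15) and Sesn1 (1.03) rose, and the gene that fell, named after its value was seen, was Bcl6 (-2.04), which encodes a transcriptional repressor. Sesn3 (-0.72, adjusted p = 0.0575), also named after its values were seen, was lower in every cachectic mouse than in any control but did not pass. Of the 12 genes, 9 had a log2 fold change above 0. The genes of these 2 lists also respond to fasting, glucocorticoids and other signals, and the counts of their lists are a description with no test of the list.

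**Figure D5:**
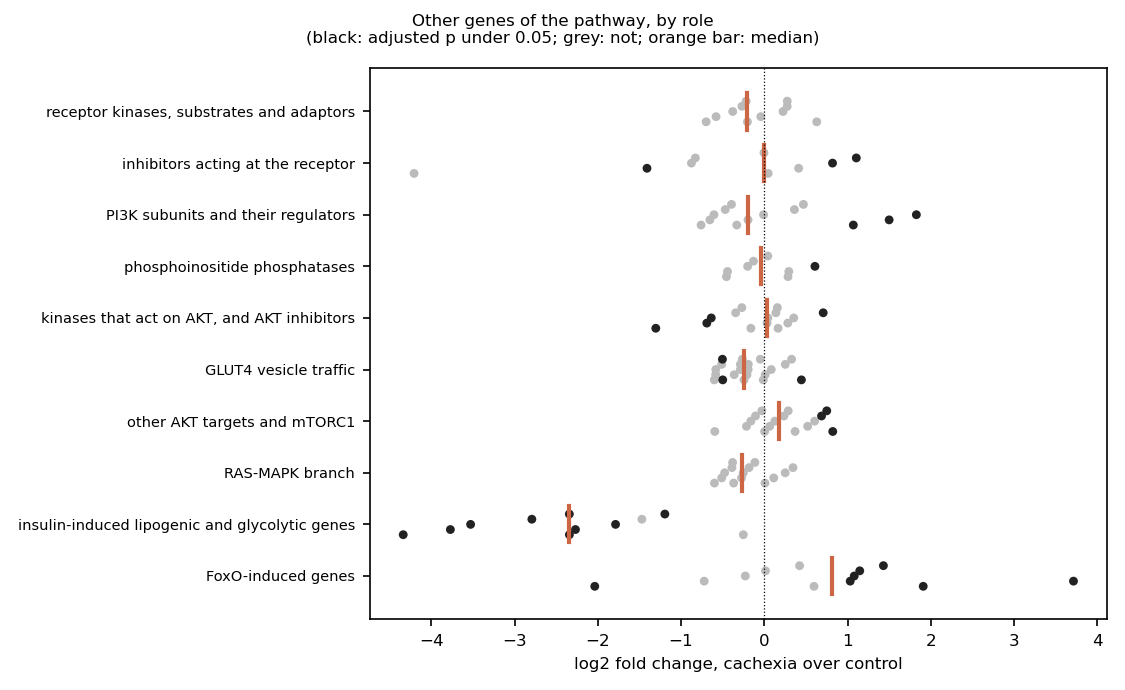
Log2 fold change of cachexia over control (horizontal axis) of the 129 other tested genes of the pathway, 1 point per gene, by role, with the median of each list as an orange bar and genes with an adjusted p under 0.05 in black. The list of insulin-induced genes lies to the left (median -2.34) and that of FoxO-induced genes to the right (median 0.81), while the medians of the other 8 lists lie between -0.26 and 0.18.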

How the data were processed

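RNA-seq of eWAT from 3 cachectic and 3 control mice was analyzed, grouped by the sample labels. The authors removed low-quality reads, aligned with Hisat2 and counted reads per gene with featureCounts (1.5.0-p3 in the submitters' processing notes), and they deposited raw counts per mouse; the use of strand is not given in the sources used here. The authors also deposited FPKM values, used here for levels per length. The notes name mm9, but 99.8% of gene identifiers are in GENCODE M21 (GRCm38), 98.3% of these with the same coordinates, all 9 genes examined included. Another deposited table holds the authors' own DESeq2 comparison (fold changes, p-values, 6 per-mouse columns) and was not used.

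The tests used edgeR 4.0.16 under R 4.3.3. Low counts were removed by filterByExpr, TMM factors ran from 0.937 to 1.07, and quasi-likelihood p-values were adjusted by Benjamini-Hochberg across the 16003 genes left, without covariates; the biological coefficient of variation was 0.264. The standard error is the log2 fold change over the square root of F, with 95% intervals from its t distribution. Permutation tests of single genes used log2 CPM with a pseudocount of 0.5. Total counts of 14928766 to 18855546 set the counting precision, and the labels do not state how the mice were raised, so p-values measure the spread between these samples. No pair of libraries was near-identical. The scripts were tested on simulated counts.

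The genes and lists were chosen with earlier results of these data known. Named genes are the 9 genes, 15 key genes, and up to 4 others per list with the smallest p among those passing; some of these are not reported here. Alternatives were each mouse left out, RLE factors, library totals, no filter, a minimum of 10 counts in every sample, replicate number as a block, limma-voom (limma 3.58.1), DESeq2 1.42.0, and FPKM values tested by limma after adding 1 or 0.1 and taking log2.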

Additional observations from a re-analysis of the deposited data

How the results depend on the processing

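The genes past the threshold numbered 2821 in the analysis reported and between 1881 and 3884 in the 9 settings that kept all mice. With 1 mouse left out they numbered 828 to 2339, with 828 without control replicate 3 and 1312 without control replicate 2. Insr, Pik3r1 and Grb14 passed in all 15 other settings tried, with the same direction in each, and Irs2 in 11. Among the 9 genes, 3 to 4 passed with 1 mouse left out, and the same 4 in every setting that kept all mice. The log2 fold change of Grb14 was between -3.35 and -1.67, the smallest size with a pseudocount of 1 on FPKM, which by construction draws low values together. Of 4 genes whose direction turned, none had passed the threshold. Ptpn1 had a log2 fold change of 0.044 with library totals and between -0.20 and 0.11 with 1 mouse left out, above 0 without control replicate 1, cachexia replicate 1 or cachexia replicate 3. With 1 mouse left out, Akt2 had -0.048 to 0.17 (below 0 without control replicate 1 or cachexia replicate 1), Pde3b had -0.15 to 0.28 (below 0 without control replicate 1) and Irs1 had -0.53 to 0.13 (above 0 without control replicate 2). The cause was not tested. Of the other named genes that passed, Trib3 and Trip10 passed in 5 of the 15 settings, Rab10 and Eif4ebp1 in 7, Foxo3 in 8, Pik3ip1 in 9, Prr5 in 10, and Srebf1, Rala, Foxo4 and Bcl6 in 12. Inpp5k and Mapkap1 passed in 13 (adjusted p up to 0.0758 and 0.0583, lost without control replicate 2 or 3), and Grb10 and Socs3 in 14 (0.0773 and 0.0651 without control replicate 3). Leaving out 1 mouse took the adjusted p up to 0.0788 for Prr5 (lost when any 1 control, or cachexia replicate 2 or 3, was left out), 0.0774 for Foxo4 (lost when any 1 control was left out), and 0.0675 for Srebf1 and 0.0627 for Bcl6 (lost without control replicate 2 or 3 or cachexia replicate 1). Rala was lost without control replicate 2 or 3 (up to 0.107). Calls were gained for Tbc1d1 with DESeq2, for Grb7 without the filter, and for Acaca with DESeq2 (0.00536), without the filter (0.0453) and without control replicate 1 (0.0160). Replicate numbers belong to different mice, and deviations of same-numbered mice from their group means correlated between -0.01 and 0.01, so expression showed no pairing by number. A pairing with little effect on expression could not be seen in this way. With a replicate block 1881 genes passed, and 4 of the 9 genes, the same as without it, while Pik3ip1, Trib3, Rala, Trip10, Rab10 and Eif4ebp1 no longer passed; no mouse correlated best with its own number. The 7 ratios moved by less than the larger group SD in all 49 alternatives, but these could hardly have come out otherwise. With 3 mice in a group, leaving 1 out cannot move the mean by as much as the SD. Within a library, the deposited FPKM give nearly the same ratio as counts per length. The 49 alternatives are therefore no check of the ratios. Depth limits Grb14 most, with 21 to 62 reads in cachectic mice.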
